A study of Mus musculus with 12 samples.

Results

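The genes described are 10 members of the Nodal and bone morphogenetic protein (BMP) signalling pathways, out of 21887 protein-coding genes of the mouse annotation. They are the ligands Nodal, Gdf3 and Bmp4, the receptor Bmpr1a, the inhibitors Lefty1, Lefty2 and Smad7, and the target genes Id1, Id2 and Id3. Open chromatin was read from ATAC-seq peak lists, in which a peak marks DNA where Tn5 transposase inserted adapters above the local background. Overlapping peaks of all 12 libraries were merged into 97889 regions. The 71 regions that touched a member gene or the 20 kb on either side of it are the member regions, and no region fell into the windows of more than 1 member.

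The cells were mouse embryonic stem cells of a BL6xCAST line, carrying synHPRT1 or synHPRT1R on chromosome X, and no unmodified line was analysed here. Each genotype had 2 clones with 3 replicate libraries per clone, so there were 6 libraries for each of the 2 genotypes. All 12 libraries came from the same culture conditions, gelatin-coated plates and a serum-containing blend dominated by 2i medium, with LIF and with inhibitors of GSK3 and MEK. Each clone is a single derived line, and the labels do not say whether its replicates were separate cultures, so every p-value below reflects library-to-library spread that could be technical. The smallest p an exact test can give is 0.333 for 2 clones against 2 and 0.1 for 3 libraries against 3.

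Nodal and GDF3 are secreted TGF-beta family ligands that signal through activin receptors and SMAD2 and SMAD3. BMP4 binds receptors that include BMPR1A, signals through SMAD1, SMAD5 and SMAD9, and switches on the Id genes, whose proteins block basic helix-loop-helix transcription factors. LEFTY1 and LEFTY2 are secreted antagonists of Nodal whose genes are themselves Nodal targets, and SMAD7 is an inhibitory SMAD that acts inside the cell. In mouse embryonic stem cells, BMP4 acting through Id proteins is known to support self-renewal together with LIF.

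RefSeq promoter sequences of the GRCm38.p6 assembly were matched by symbol for 5 of the 10 members, Nodal, Bmp4, Bmpr1a, Id2 and Id3. They are shown because peaks touched these starts very unevenly, and they cover the 250 bases before each start, 5′ to 3′ on the gene's strand. Nodal's lies at chr10:61417722-61417971 on the plus strand, Bmp4's at chr14:46390670-46390919 on the minus strand, Bmpr1a's at chr14:34502547-34502796 on the minus strand, Id2's at chr12:25096093-25096342 on the minus strand and Id3's at chr4:136143572-136143821 on the plus strand. Capitals mark exact matches to the motifs named after the sequences.
Nodal: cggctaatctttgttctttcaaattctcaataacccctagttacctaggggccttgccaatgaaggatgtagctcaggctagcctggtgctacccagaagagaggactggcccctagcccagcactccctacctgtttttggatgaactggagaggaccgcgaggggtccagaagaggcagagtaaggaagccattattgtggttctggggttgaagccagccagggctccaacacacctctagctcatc
Bmp4: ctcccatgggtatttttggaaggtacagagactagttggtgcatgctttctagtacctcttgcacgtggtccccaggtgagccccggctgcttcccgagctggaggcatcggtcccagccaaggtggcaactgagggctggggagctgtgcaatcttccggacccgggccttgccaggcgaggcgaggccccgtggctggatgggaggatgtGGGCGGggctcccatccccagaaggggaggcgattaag
Bmpr1a: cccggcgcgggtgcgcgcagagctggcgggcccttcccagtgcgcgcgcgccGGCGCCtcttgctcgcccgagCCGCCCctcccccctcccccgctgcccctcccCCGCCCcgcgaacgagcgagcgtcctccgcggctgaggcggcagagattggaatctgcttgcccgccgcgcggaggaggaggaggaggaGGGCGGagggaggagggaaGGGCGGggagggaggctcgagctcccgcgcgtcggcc
Id2: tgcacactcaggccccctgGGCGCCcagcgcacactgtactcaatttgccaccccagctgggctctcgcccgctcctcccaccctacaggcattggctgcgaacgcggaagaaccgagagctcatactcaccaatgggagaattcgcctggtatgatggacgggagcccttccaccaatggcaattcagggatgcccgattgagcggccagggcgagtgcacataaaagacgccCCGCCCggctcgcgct
Id3: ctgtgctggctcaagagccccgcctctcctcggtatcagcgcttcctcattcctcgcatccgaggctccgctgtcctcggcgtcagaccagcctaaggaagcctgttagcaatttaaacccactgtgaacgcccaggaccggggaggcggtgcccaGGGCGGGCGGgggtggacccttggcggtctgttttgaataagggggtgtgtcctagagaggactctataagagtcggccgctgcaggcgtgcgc

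Both strands were searched for a TATA box (TATAAA), a GC box (GGGCGG), a GC-rich SMAD element (GGCGCC), a SMAD palindrome (GTCTAGAC), a FOXH1 motif (AATCCACA) and an octamer (ATGCAAAT). The GC box was in 4 of the 5 member promoters and in 42.6% of 21263 promoters of the same length. Bmpr1a held 4 GC boxes, Bmp4 and Id2 held 1 each, and Id3 held 2 that overlap each other. The GC-rich SMAD element was in Bmpr1a and Id2 and in 12.3% of all promoters. The TATA box (11.6% of all promoters), the SMAD palindrome (0.183%), the FOXH1 motif (0.663%) and the octamer (1.58%) were in none of the 5, which says only that these letters are not in the windows. A match describes the sequence and is not evidence of a bound site.

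The 5 promoters differed widely in base composition. Bmpr1a was 78.8% G and C with 36 CpG dinucleotides, Bmp4 was 63.2% with 11, and Id2 and Id3 were each 62.8% with 18. Nodal was 53.2% with 3, below the medians of all promoters (55.6% and 10 CpG). A peak touched the window from 250 bases before to 50 bases after the start in 12 libraries for Id2, 11 for Id3, 6 for Bmpr1a, 5 for Bmp4 and 3 for Nodal. Of these 5, Id2 alone was touched in all 12 libraries, where 41.5% of all promoter windows were. The GC-richest promoter, that of Bmpr1a, was not the most often touched.

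The lists held 38403 to 63704 peaks per library. As a check of the cell type, 5 of 7 embryonic stem cell markers had a peak at a gene end (within 1 kb of it) in all 12 libraries (Nanog, Sox2, Klf4, Zfp42 and Tfcp2l1), while Pou5f1 had such a peak in 6 libraries and Esrrb in 1. Of 7 fibroblast markers 0 had such a peak in all 12 libraries. Col1a1 and Twist2 had one in 11 libraries, Pdgfrb in 9, Col1a2 in 8, Dcn in 3, Thy1 in 1 and Col3a1 in 0. Col1a1, Twist2, Pdgfrb and Col1a2 thus exceeded Pou5f1 and Esrrb, so this check separates the 2 marker lists only in part. Because each library is a bulk population, fewer cells with an open site and weaker opening in every cell cannot be told apart, and a site absent from a list was not detected, not shown to be closed.

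Of the 71 member regions, 13 were listed in all 12 libraries, 40 in 2 to 11 and 18 in 1. Those 13 are 18.3% of the member regions, against 23.8% of all regions of the genome, and the 18 are 25.4%, against 27.1%. By place, 15 lay within 1 kb of an end of the member gene, 16 lay further inside it and 40 in the flanks. The 13 recurrent regions comprised 5 at a member's gene end and 8 in flanks, with 0 of the 16 inner regions among them. Place here is that of the merged region, and at Nodal only 7 libraries had a peak of their own within 1 kb of a gene end. No annotated end of any gene lay within 1 kb of 7 of the 13, and the same was true of 52.0% of all regions listed in 12 libraries. The recurrent regions were also longer, with a median of 1254 bp (648 to 2609), against 449 bp (189 to 1358) for the rest. A union of more peaks is longer by construction, and in the whole genome the medians were 1083 and 405 bp. When a library counted only if its peaks covered at least 50% of the merged region, 0 of the 71 member regions were in all 12 libraries, against 9.54% of all regions.

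Peak height is given as the in-list percentile, the share of a library's own peaks with a lower fold over background than the strongest peak in the region, so that 100 would be the highest peak. A fold and its percentile are the authors' peak calls re-ranked within a list, and they describe that list only. The 13 recurrent regions had a median percentile of 64.3 (46.0 to 83.6), and the others 24.3. In the genome these values were 73.9 and 19.8. Recurrence and height thus went together among the members, as they did in the lists as a whole.

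**Figure D1:**
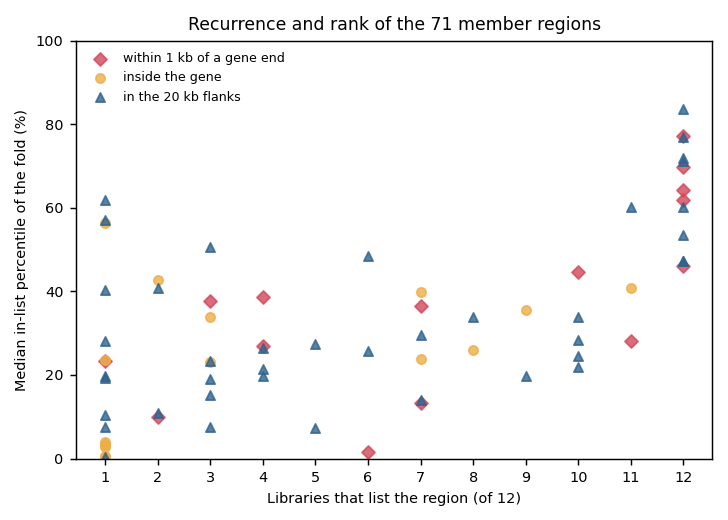
Each of the 71 member regions by the number of libraries that list it (x axis, of 12) and its median in-list percentile of the fold (y axis, %), marked as within 1 kb of a gene end, inside the gene or in the 20 kb flanks. The 13 regions in 12 libraries sit between 46.0 and 83.6, while single-library regions spread from 0.363 to 61.8.

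Among the ligands, Gdf3 had the most regions in all 12 libraries of the 10 members within 20 kb, and with a flank of 10 kb it had 2, as did Lefty2 and Smad7. Its window on chromosome 6 held 10 regions, 22.4 per 100 kb, of which 4 were in all 12 libraries, and its gene spans 122605403 to 122610087. The region at its high end, chr6:122607877-122610232, was 2356 bp long with a percentile of 58.9, 69.1 and 79.1 (lowest, median and highest) in synHPRT1 and 54.5, 72.3 and 80.1 in synHPRT1R. The 2 ranges overlapped almost fully. The highest of its regions was chr6:122624387-122625133, which lies 14300 bp past the gene on the side of Dppa3, a pluripotency and germ cell gene. Its percentile ran from 64.8 through 76.9 to 81.2 in synHPRT1 and from 57.3 through 73.2 to 89.5 in synHPRT1R. The other Gdf3 regions in 12 libraries were chr6:122590942-122591949 inside the neighbouring gene Apobec1, with a median percentile of 71.2, and chr6:122617325-122617972 between Gdf3 and Dppa3, with 47.4. At the low end of Gdf3, 1 library listed a peak, a region of 246 bp with a percentile of 23.4.

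Nodal had 6 regions on chromosome 10 and 1 in all 12 libraries. That region, chr10:61415402-61418010, spans 2609 bp and is the longest of the 71, and it reaches the start of the gene. The strongest summit inside it had a median position of -1930 bp from the start, with the 12 summits within 335 bp of each other. Its percentile was 17.4, 42.8 and 62.8 (lowest, median and highest) in synHPRT1 and 27.0, 48.4 and 67.3 in synHPRT1R. The Nodal start itself, in the GC-poor promoter printed above, was thus inside the merged region, while a library's own peak touched the promoter window in 3 of 12. Within 1 kb of the start on either side, 7 libraries listed a peak. Just inside the gene, chr10:61418211-61418658 was listed in 3 libraries of each genotype with a median percentile of 1.53, among the lowest peaks of their lists. A further region, chr10:61423146-61423624, 5174 bp into the gene, was listed in 4 synHPRT1 and 3 synHPRT1R libraries, with percentiles from 19.2 to 66.3. Nodal is known to be controlled by enhancers both upstream and inside the gene, and none of these regions was tested for such activity here.

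Bmp4 differed from the other ligands in that 0 of its 7 regions were in all 12 libraries. The most recurrent was chr14:46387084-46387737, inside the gene and overlapping the annotated gene Gm15222, which was listed in 5 synHPRT1 and 6 synHPRT1R libraries. Its percentile was 1.29, 41.3 and 56.6 across synHPRT1 libraries and 7.13, 35.0 and 55.9 across those of synHPRT1R. Single libraries thus ranged from near the bottom of their list to above its middle. The region over the start, chr14:46390151-46390916, was listed in 7 libraries, and its percentile there ran from 2.45 to 47.7 with a median of 13.2. Those 7 were all 3 libraries of synHPRT1 clone 2, all 3 of synHPRT1R clone 2 and 1 of synHPRT1R clone 1. It was the only member region listed in 3 of 3 libraries of 1 clone and 0 of 3 of the other clone of the same genotype. Among all 97889 regions this pattern occurred 306 times for synHPRT1 clone 1 and 181 times for clone 2. For the synHPRT1R clones it occurred 593 and 151 times. The 1 case among 71 member regions is therefore not read as particular to Bmp4. Upstream, chr14:46391695-46392248, 1026 bp before the start, was in 9 libraries, and chr14:46398145-46399002, 7476 bp before it, in 10.

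**Figure D2:**
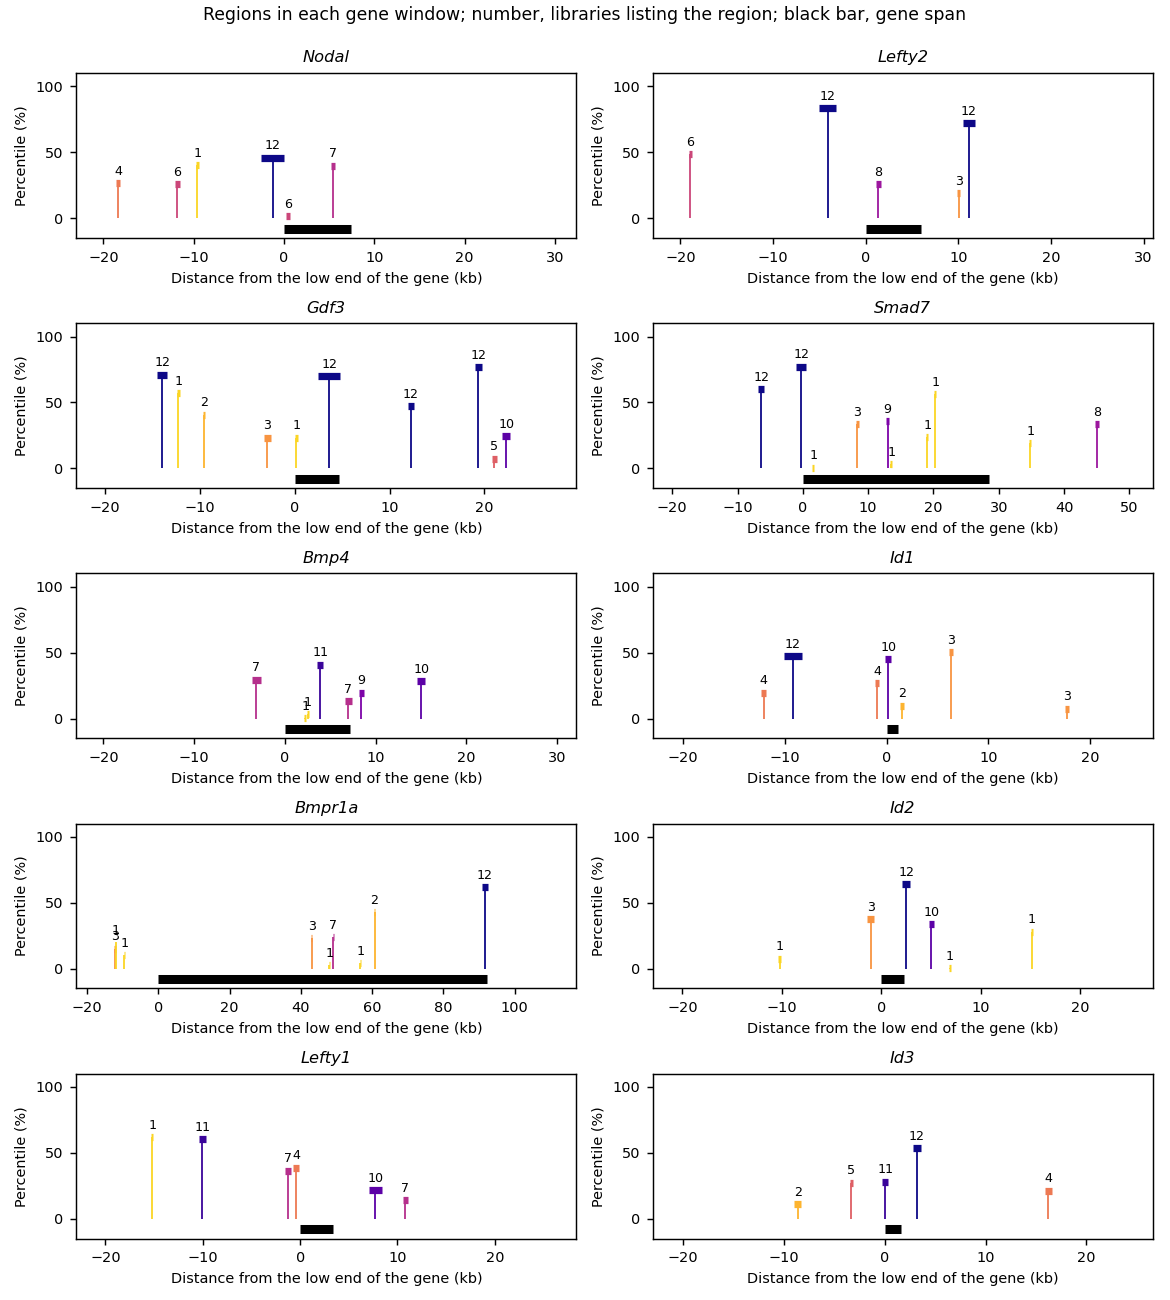
Position of each member region relative to the low-coordinate end of its gene (x axis, kb, with the gene span as a black bar), against the median in-list percentile (y axis, %), with the number of libraries that list it above. Gdf3 has 4 regions in 12 libraries, Bmp4 and Lefty1 have 0, and the highest region of all is the one 3190 bp before the low end of Lefty2.

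Bmpr1a, which encodes a type I BMP receptor, is the longest member at 92276 bp and had the fewest regions for its window, 9 or 6.80 per 100 kb. Only the region over its start, chr14:34501768-34503434, was in all 12 libraries. Its percentile was 50.7, 62.0 and 87.8 (lowest, median and highest) in synHPRT1 and 44.0, 57.9 and 80.9 in synHPRT1R, again with overlapping ranges. The strongest summit fell in either of 2 places 1009 bp apart at the extremes, the largest spread of the 71 regions. In 8 libraries it lay between 34502087 and 34502271, and in the other 4 between 34502916 and 34503096. The start in the promoter table, 34502546, lies between these positions and inside the annotated gene span, which ends at 34503336, so both fall within the span. The 4 libraries with the higher coordinates were 2 of synHPRT1 and 2 of synHPRT1R, and the GC-rich promoter printed above lies between the 2 summit positions. The remaining 8 regions were in 1 to 7 libraries. The most recurrent of them, chr14:34459958-34460392, sat 42154 bp past that start and was listed in 4 synHPRT1 and 3 synHPRT1R libraries.

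Of the inhibitors, Lefty2 had the highest of the 71 regions and no peak within 1 kb of either gene end in any library, which was the case for 31.6% of protein-coding genes. That region, chr1:180888075-180889918, lies 3190 bp before the low end of the gene and is 1844 bp long. Its percentile was 74.1, 82.9 and 90.0 in synHPRT1 and 70.7, 86.4 and 89.3 in synHPRT1R, and its fold ran from 6.51 to 8.76 over the 12 libraries. It thus ranked in the upper part of the list in all 12 libraries.

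Inside Lefty2, chr1:180894189-180894765 was listed in 6 of 6 synHPRT1 and 2 of 6 synHPRT1R libraries, the largest difference between genotypes among the member regions. Its percentiles were modest, from 5.36 to 31.1 in synHPRT1 and 20.1 and 25.5 in the 2 synHPRT1R libraries, both of clone 1. The difference did not pass the two-sided Fisher's exact test (p = 0.0606, adjusted p = 1). For a region in 8 libraries, 6 against 2 is the most uneven split, so 0.0606 is the smallest p this test can give. It could not have passed, and no conclusion is drawn from it. Without synHPRT1R clone 1 replicate 1, or without replicate 2 of that clone, the unadjusted exact p was 0.0152 and the adjusted p remained 1. These are the 2 synHPRT1R libraries that listed the region, and leaving out either left 6 synHPRT1 libraries against 1 of synHPRT1R. The lower p thus came from removing a library that listed the region.

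Lefty1, a neighbour of Lefty2 on chromosome 1, had 6 regions and 0 in all 12 libraries. Its highest median percentile, 61.8, was that of chr1:180919697-180919953, which 1 library listed. The highest listed in more than 1 library was chr1:180924625-180925328 (60.3), 9694 bp before the low end and within the annotated gene Gm39715, listed in 11 libraries. The percentile of this second region was 16.5, 63.4 and 73.7 in synHPRT1 and 35.5, 55.3 and 71.7 in synHPRT1R. The only library without it was synHPRT1R clone 2 replicate 2. Near the low end of Lefty1, chr1:180934339-180934886 was in 4 libraries and chr1:180933452-180934097 in 7, and 6 libraries had a peak of their own within 1 kb of that end. At the high end 0 libraries had one.

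Smad7 had 10 regions on chromosome 18, of which 2 were in all 12 libraries and 5 in a single library. The region at its low end, chr18:75366324-75367851, had a percentile of 69.7, 75.8 and 84.4 in synHPRT1 and 70.2, 79.0 and 91.7 in synHPRT1R. It was the highest of the member regions that lie at a member's gene end. The other, chr18:75360558-75361472, 5893 bp before the low end, varied more, with 12.1, 50.4 and 71.0 in synHPRT1 and 44.4, 67.1 and 83.9 in synHPRT1R. Both overlap the annotated gene Gm20544. Of 6 regions inside Smad7, the most recurrent was chr18:75380075-75380597 in 9 libraries, and 4 were in a single library each.

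The 3 Id genes are short, from 1160 to 2294 bp, and together held 18 regions, of which 3 were in all 12 libraries, 1 per gene. For Id2 that region is the promoter, chr12:25095843-25096722, with a percentile of 51.6, 64.1 and 75.4 in synHPRT1 and 45.0, 64.3 and 76.9 in synHPRT1R. Its median summit was at -126 bp from the start, inside the printed sequence, and the 12 summits lay within 130 bp. A second Id2 region, chr12:25098593-25099055, 2501 bp before the start, was in 10 libraries with a median percentile of 33.8.

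For Id3 the region in all 12 libraries was not the promoter but chr4:136146606-136147404, 1214 bp past the high end of the gene. Its percentile was 28.0, 58.3 and 76.9 in synHPRT1 and 34.1, 53.6 and 73.5 in synHPRT1R. The promoter region, chr4:136143604-136144132, was in 11 libraries, all but synHPRT1R clone 2 replicate 2, with a lower median of 28.2 and a range of 2.35 to 60.2. Its median summit lay at -7 bp from the start. In Id1 the region in all 12 libraries was chr2:152726174-152727911, 8340 bp before the low end, with percentiles of 36.1, 52.2 and 56.2 in synHPRT1 and 27.8, 37.1 and 70.1 in synHPRT1R. The region over the low end of Id1, chr2:152736109-152736685, was in 10 libraries with a median of 44.8 and a range of 14.7 to 74.2. Counting both gene ends, all 12 libraries had a peak within 1 kb of an end of Id1.

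A peak at a gene end, again within 1 kb, was listed in all 12 libraries for 5 of the 10 members, Gdf3, Bmpr1a, Smad7, Id1 and Id2, against 48.1% of protein-coding genes. It was listed in 11 libraries for Id3, 7 for Nodal and Bmp4, 6 for Lefty1 and 0 for Lefty2. The members' windows held a median of 6.5 regions, or 14.0 per 100 kb, and those of all protein-coding genes 4 regions, or 6.01 per 100 kb. The windows of the members are short, and the part of length in this difference was not tested. The windows of the 7 stem cell markers held a median of 18.8 regions per 100 kb, so such a density was not particular to the members. Those of 47 further pathway genes held a median of 7.88.

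The genes also differed in the strongest peak anywhere in the window. Its median percentile over 12 libraries was 88.9 for Lefty2, 80.3 for Gdf3, 77.1 for Smad7, 64.3 for Id2, 62.2 for Lefty1, 62.0 for Bmpr1a, 55.0 for Id1, 53.6 for Id3, 48.9 for Nodal and 41.1 for Bmp4. Each gene's range over the libraries overlapped that of its neighbours in this order, with Lefty2 ranging from 70.7 to 90.5, Gdf3 from 69.6 to 89.5, and Smad7 from 70.2 to 91.7. At the lower end Nodal ranged from 29.5 to 67.3 and Bmp4 from 19.7 to 56.6. The middle of the order changed when peaks were ranked by the −log10 p-value, where the mean percentiles were 65.5 for Id3 and 61.4 for Nodal, above 58.8 for Bmpr1a and 53.8 for Lefty1.

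**Figure D3:**
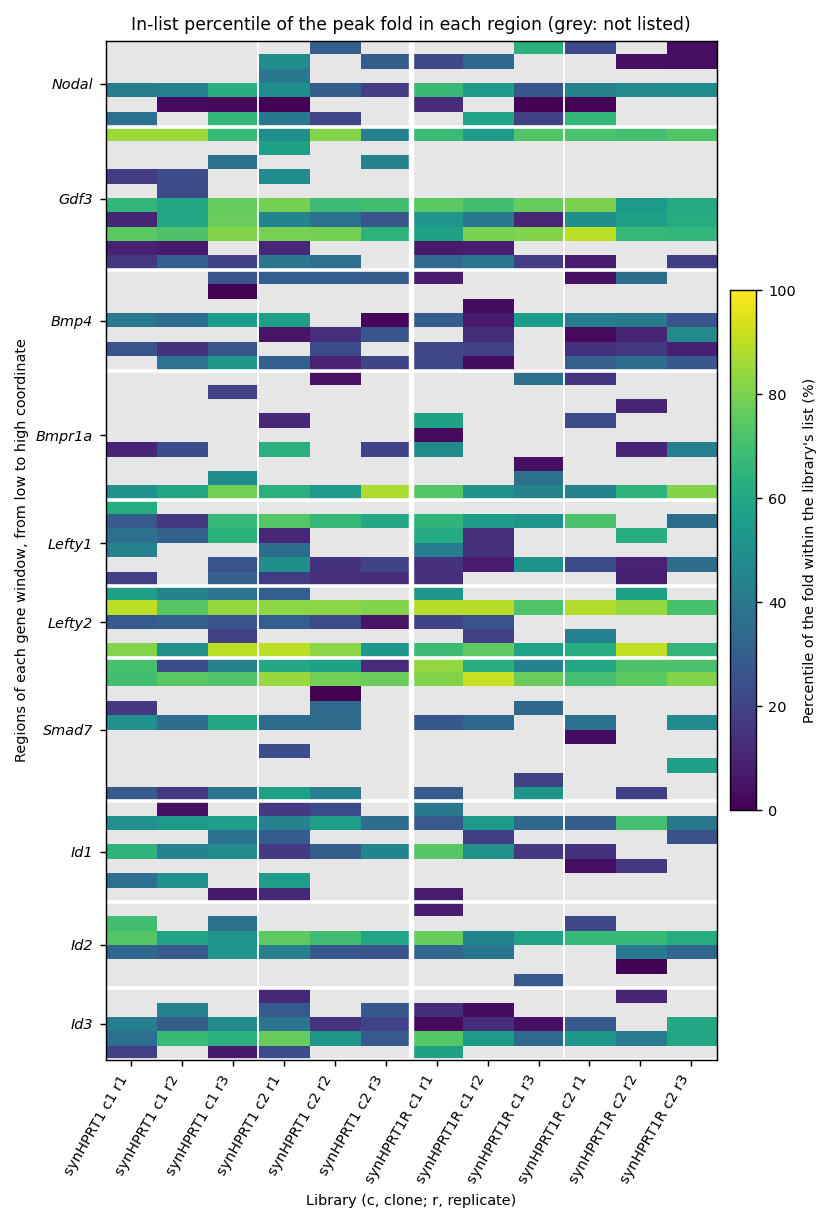
In-list percentile (colour, %) of the strongest peak in each of the 71 member regions (rows, by gene and coordinate) in each of the 12 libraries (columns), with grey where a library lists no peak. Rows without grey are the 13 regions in all 12 libraries.

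The genotypes were compared by presence in the lists. Clone 1 of synHPRT1 gave 36, 34 and 40 member regions per library, and clone 2 gave 47, 33 and 28. Clone 1 of synHPRT1R gave 41, 34 and 29, and clone 2 gave 33, 30 and 28. Genotype means were 36.3 ± 6.53 and 32.5 ± 4.76 (SD, n = 6 each), and the difference of 3.83 did not exceed the library spread (exact permutation test, two-sided p = 0.312, smallest possible 0.00216). Clone means were 36.7 ± 3.06 and 36 ± 9.85 for synHPRT1 and 34.7 ± 6.03 and 30.3 ± 2.52 for synHPRT1R (SD, n = 3 libraries each). The 3 longest lists held the 3 highest counts of member regions. Per 10000 listed peaks the means were 7.07 ± 0.454 and 6.76 ± 0.360 (exact permutation p = 0.214, n = 6 each).

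**Figure D4:**
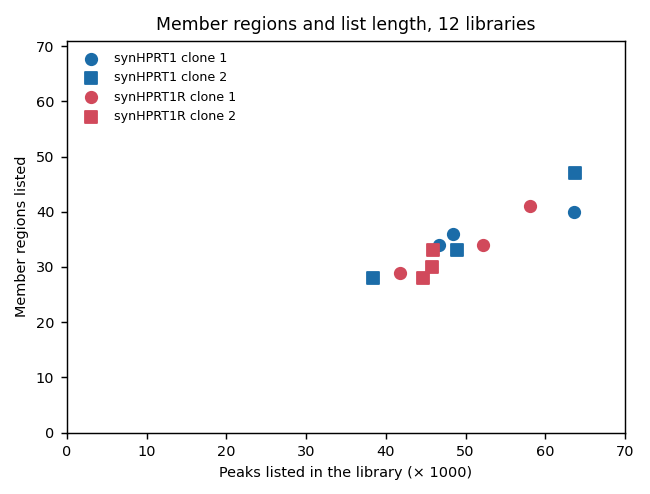
Member regions listed (y axis) against the number of peaks in the list (x axis, in units of 1000) for each of the 12 libraries, coloured by genotype and shaped by clone. The libraries run from 28 to 47 member regions, and those of the 2 genotypes overlap along both axes.

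Of the 58 member regions listed in 1 to 11 libraries, 31 were listed more often in synHPRT1, 20 more often in synHPRT1R and 7 equally often. Fisher's exact test (two-sided, Benjamini-Hochberg adjusted) called 0 of them, and 0 reached p under 0.05 before adjustment. With 6 libraries against 6, only a region in 5, 6 or 7 libraries can fall under 0.05, and 2, 3 and 6 member regions were in that many. The smallest p the test can give is 0.00216, so an adjusted call needs very many regions at that value. Over the genome the test called 0 of 74604 tested regions (0%), and 164 reached p under 0.05 before adjustment (0.22%). Of those 164, 123 were listed more often in synHPRT1. No member region was listed in 1 genotype only in 4 or more of its 6 libraries. The nearest cases were chr6:122602197-122602870 before Gdf3 and chr2:152742380-152742728 past Id1, each listed in 3 synHPRT1 libraries and 0 of synHPRT1R (exact p = 0.182), and both in the same 3 libraries. These 2 were picked out after their values were seen. How many of all regions were listed in 1 genotype only in this way, or more often in synHPRT1, is not given here. The member counts are therefore not read as particular to the members.

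Counted per gene, synHPRT1 libraries listed more regions on average for 6 members, fewer for 3 (Nodal, Bmp4 and Bmpr1a) and the same for Id2. The largest difference was that of Gdf3, whose libraries listed 7, 8, 6, 8, 5 and 5 regions in synHPRT1 and 6, 6, 5, 5, 4 and 5 in synHPRT1R. Those counts overlapped, and the means of 6.5 ± 1.38 and 5.17 ± 0.753 (SD, n = 6 each) did not differ beyond the spread (exact permutation p = 0.117, adjusted p = 1). For Id2 both means were 2.33 ± 0.516. The exact permutation test called 0 of the 10 members, and 0 reached p under 0.05 before adjustment. With a flank of 10 kb Gdf3 had an unadjusted exact p of 0.0152, and with a −log10 q-value limit of 5 Id1 had 0.0476, each with an adjusted p of 1. Over 18298 gene windows the permutation test, whose smallest possible p is also 0.00216, called 0 (0%). Of these windows, 230 reached p under 0.05 before adjustment (1.26%). The median difference, synHPRT1 minus synHPRT1R, was 0.58 regions over the members and 0 over all protein-coding genes. Of those 21887 genes, 10850 had more regions on average in synHPRT1, 5012 fewer and 6025 the same, so a tilt to synHPRT1 was not particular to the members.

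The rest of the pathway was read from 47 genes in 5 lists, described by the same gene-end measure. A peak within 1 kb of an end was listed in all 12 libraries for 6 of 10 further ligands, 9 of 11 receptors and co-receptors, 4 of 7 SMADs and nuclear partners, 10 of 13 inhibitors and 4 of 6 convertases and targets. That makes 33 of 47, with 11 genes in 1 to 11 libraries and 3 in 0. The 3 were Bmp5, a BMP ligand, Inhba, which encodes an activin subunit, and Furin, a convertase that cleaves TGF-beta family precursors. The windows with the most regions in all 12 libraries included those of Tgif1, a repressor of SMAD-driven transcription, and Bmpr1b, a type I BMP receptor, with 5 each, and the window of the ligand gene Tgfb2 held 4. Of the 47, 1 gene had an unadjusted exact permutation p under 0.05 between genotypes, the activin antagonist Fst, with means of 3 and 1.83 regions (p = 0.013, adjusted p = 1).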

How the data were processed

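ATAC-seq peak lists of 12 libraries were analysed, 1 list per sample, so the authors called peaks per library and not on pooled samples. Per the submitters' processing notes, the tools include MACS2 2.1.0, Bowtie2 2.2.9, SAMtools 1.9, bcl2fastq 2.20 and deepTools 3.5.0, with builds GRCm38 and mm10. For filters, duplicate removal and any read shift for Tn5, the settings were not given in the sources used here. The deposited fold is the ratio of a peak's signal over local background. The authors also deposited a −log10 p-value and a −log10 q-value for each peak, with no −log10 q-value under 1.30. The last deposited column places the summit relative to its peak's start. Read numbers were not used, and the number of listed peaks stands in for depth, which is otherwise unknown here.

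Peaks on chromosomes 1 to 19, X and Y that overlapped by at least 1 bp were merged over the libraries. Gene spans came from a RefSeq table of GRCm38.p6 without strand, exons or transcripts, so exonic or intronic place was not determined, and starts are given only for the 5 members in the RefSeq promoter table. Presence was tested per region by Fisher's exact test (two-sided), and regions per library with the two-sided exact permutation test over all 924 splits, both adjusted by Benjamini-Hochberg over all regions or genes tested, at 0.05. The members and gene lists were chosen with earlier results of these data known. All 10 members are named, with each one's highest region and those nearest its ends, and pathway genes are named if no library had a peak at an end or if their windows held the most regions listed in all 12. Some results that the rule would name are not reported here. Alternatives were a −log10 q-value of at least 5, lists of equal length, flanks of 10 and 50 kb, 50% coverage, ranking by the −log10 p-value, a replicate block and leaving out each library. The tests were tested on simulated data. Python 3.11.15, NumPy 2.4.6, pandas 2.3.3 and SciPy 1.17.1 were used.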

Additional observations from a re-analysis of the deposited data

Results flagged for a closer look

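In 4 of 42 groups of 6 libraries, 1 library stood far from the others of its genotype. For normally distributed values the rule used flags about 1 in 20 groups by chance. Many of these groups are small counts with ties, and all draw on the same 12 libraries, so the chance rate here is not known. For Nodal, synHPRT1 clone 2 replicate 1 listed 5 regions, where the next highest synHPRT1 library listed 3. The same library listed 5 regions for Id3, where the next highest listed 3, and its list of 63704 peaks is the longest of the 12. For Bmp4, synHPRT1R clone 1 replicate 3 listed 1 region, where the next lowest synHPRT1R library listed 4. For Lefty1, the strongest peak of synHPRT1 clone 1 replicate 2 had an in-list percentile of 31.1, where the next lowest synHPRT1 library had 60.3.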

How the results depend on the processing

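The difference between genotypes in member regions per library, 3.83, kept its direction and did not pass the test in any alternative run. It was 4.17 for peaks whose −log10 q-value was 5 or more, 2.33 with lists of equal length, 2.83 and 5.83 with flanks of 10 and 50 kb, 2.33 with 50% coverage, and 2.33 to 5.53 with 1 library left out (exact permutation p from 0.113 to 0.487). With the replicate number as a block it was 3.83 with an exact permutation p of 0.25. Libraries with the same number did not deviate together in which regions they listed (correlations from -0.00769 to 0.0251 over 18 pairs, and 2 of 12 libraries correlated best with their own number). Such correlations cannot show a shared shift in list length, so whether a number marks a shared run was not tested. List length fell from replicate 1 to replicate 3 in synHPRT1 clone 2 and in both synHPRT1R clones, but not in synHPRT1 clone 1. Adjusted calls were 0 for regions and gene windows in every alternative in which they were tested. An adjusted call needs very many regions or windows at the smallest possible p, so no conclusion is drawn from these counts of 0. With 1 library left out, the unadjusted counts rose to between 276 and 507 regions and 257 to 719 gene windows. The upper value of each was without synHPRT1 clone 2 replicate 3. The groups are then of unequal size, and Fisher's exact test can fall under 0.05 for divisions that equal groups cannot bring there. The region counts are therefore not comparable with that of all 12 libraries, and no conclusion is drawn from the rise. The 13 member regions in all libraries became 29 of 135 with a flank of 50 kb and 0 of 71 with 50% coverage, and ran from 13 to 15 with 1 library left out. Means of the strongest peak's percentile moved from 79.3 to 88.2 for Gdf3, 78.1 to 87.9 for Smad7 and 63.6 to 75.3 for Id2 when ranked by the −log10 p-value, and from 40.6 to 25.3 for Bmp4 and 63.6 to 53.1 for Id2 with lists of equal length. The other means moved by less than their SD over libraries, among them Id3 from 54.0 to 65.5 and Nodal from 51.1 to 61.4 by the −log10 p-value, and Nodal to 37.6 and Id1 from 52.9 to 40.1 with equal lengths. The differences of 3 members, none past the test, changed sign: Bmp4 from -0.33 to 0.5 under that limit on the −log10 q-value, Nodal from -0.33 to 0.33 with a flank of 10 kb, and Smad7 from 0.5 to -0.33 with 50% coverage. The cause of these shifts was not tested. A weak site can be missing from a shorter list, and the lists held 38403 to 63704 peaks.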
